A study of Mus musculus with 12 samples.

Results

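The 10 genes described here encode 4 Notch receptors (Notch1, Notch2, Notch3 and Notch4), 4 of their ligands (Jag1, Jag2, Dll1 and Dll4), the DNA-binding protein Rbpj and the target gene Hes1. They were chosen by name as members of the pathway and looked up in the copy-number segments of 2 primary murine PDAC lines, 15376T and 14837T. All 10 were found, each in a single segment of each line, among 20947 autosomal gene names with a single segment in both lines. PDAC is pancreatic ductal adenocarcinoma. The lines were isolated from C57BL/6 mice that carried a Cre-activated, tetracycline-controlled transgene, ROSA_rtTA as its activator, p48-Cre and 1 conditional allele of Trp53, and were grown with doxycycline. Thus Cre was driven by the promoter of p48, a gene of the early pancreas and of acinar cells. The labels give the genotype of both as WT, beside a LIN28B knockout of 15376T in the same series. Genomic DNA of each line was captured for whole-exome sequencing (WES) as 1 library, and values below carry the name of the line. RNA-seq of the lines and the DNA of wild-type tail were not analysed here, so nothing below is about expression, and the cell type could not be checked with markers.

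Notch signaling passes from one cell to its neighbor. A ligand of the Jagged or Delta-like family on one cell binds a receptor on the next, the receptor is cut first by an ADAM protease and then by gamma-secretase, and its released intracellular part enters the nucleus, joins Rbpj and a Mastermind coactivator, and switches on genes such as Hes1, a transcriptional repressor. In the pancreas the pathway holds progenitors in an undifferentiated state during development, and it is known to be active again when acinar cells turn into duct-like cells and in PDAC.

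Neighboring bins of like coverage were joined by the authors into segments. The log2 ratio of a segment compares its coverage with a copy-number reference, and its integer copy number was called from that ratio, with more than 2 copies counted here as gained and fewer than 2 as lost. A log2 ratio above 0.2 gave a gain and one of -0.25 or below a loss, with 0 exceptions in the 191 segments of 15376T and the 235 of 14837T. The log2 ratio would be 0.58 for 3 copies in place of 2 in every cell, and -1 for 1 copy. Every gene of a segment carries the same log2 ratio, so genes in 1 segment are not separate measurements. With 1 library per line no difference has a replicate or a test. As a measure of spread, the log2 ratios of the 103 autosomal segments with 2 copies in 15376T had an SD of 0.090 and those of the 96 in 14837T an SD of 0.095, which gives 0.13 for a difference between the lines. The call itself limits the range of these values, and segments of few and of many bins counted alike. The SD is therefore a scale for comparison and not the measurement error of a segment. The mean read depth of autosomal bins was 43.4 for 15376T and 47.5 for 14837T.

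Most of the Notch genes were called at 2 copies in 15376T. In 14837T 5 of the 10, in 4 segments, were gained, beside 21.4% of all autosomal genes. In 15376T, 8 of the 10 genes were called at 2 copies, Notch2 was gained and Hes1 was lost. In 14837T, 5 genes were gained (Notch2, Notch3, Notch4, Jag2 and Dll1), 4 were called at 2 copies and Hes1 was again lost. Among all autosomal genes, 9.09% were gained and 30.1% lost in 15376T, and 21.4% were gained and 28.8% lost in 14837T. The 1 gain of 10 in 15376T is thus near the background, the 5 gains of 10 in 14837T lie above it, and the single loss in each line lies below it. The 10 genes lie on 6 chromosomes and in 9 distinct segments in 15376T and 8 in 14837T, and the 5 gained genes in 14837T stand for 4 segments. Of these 5, Notch2 lies on chromosome 3, and Notch3, Notch4 and Dll1 on chromosome 17. Those chromosomes were gained over 99.0% and 84.1% of their length in 14837T. The median log2 ratio of the 10 genes was 0.028 in 15376T and 0.088 in 14837T, beside -0.023 and -0.045 over all autosomal genes.

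**Figure D1:**
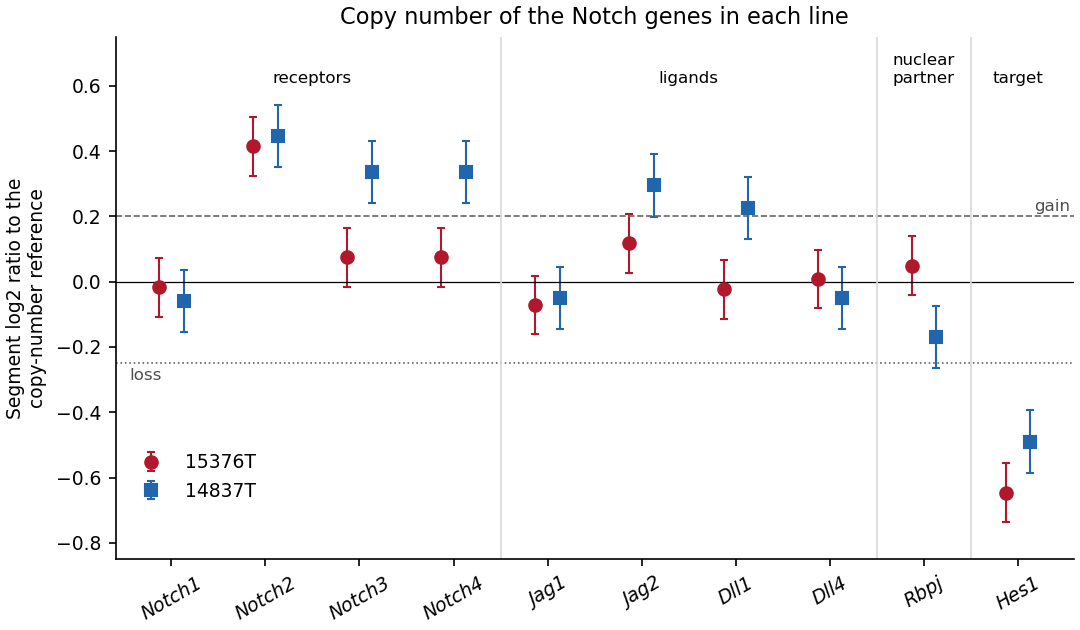
Segment log2 ratio to the copy-number reference (y axis) of the 10 Notch genes (x axis, by role) in 15376T (circles) and 14837T (squares). Bars are 1 SD of log2 among segments called at 2 copies in that line (0.090 and 0.095), the dashed line marks the gain threshold of 0.2 and the dotted line the loss threshold of -0.25. Notch2 is above the gain threshold and Hes1 below the loss threshold in both lines, whereas Notch3, Notch4, Jag2 and Dll1 are above the gain threshold in 14837T alone.

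Of the 4 receptors, Notch2 was the only one gained in both lines, a state found in 6.87% of all autosomal genes. It is located on chromosome 3 from 98013538 to 98150367 (GRCm38.p6). Its log2 ratio was 0.41 in 15376T, in a segment of 6.22 Mb with 614 bins and 56 genes, and 0.45 in 14837T, in a segment of 6.04 Mb with 563 bins and 50 genes. The lines differed by -0.032 (15376T minus 14837T), well under the SD of 0.13. The segment ended at the same base, 102922513, in both lines. The segments next to it were also called at 3 copies and were somewhat higher, with log2 ratios of 0.59 and 0.51 on the 2 sides in 15376T and 0.62 and 0.60 in 14837T. The gain was not particular to Notch2, as 82.0% of the length of chromosome 3 was gained in 15376T and 99.0% in 14837T.

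Notch2 is one of 2 Notch genes for which a depth of the gene itself was deposited, since the gene tables hold genes with an absolute log2 ratio of about 0.40 or more. The mean read depth over its 35 bins, from 98047678 to 98147467, was 67.5 in 15376T and 74.2 in 14837T. Relative to segments called at 2 copies in the same line, this depth was 0.55 higher in 15376T and 0.64 higher in 14837T on the log2 scale. The gene's own depth exceeded the depth of its segment by 0.16 and 0.21 on the log2 scale. Such a surplus is usual for listed genes with at least 5 bins, whose median was 0.14 over 4509 genes in 15376T and 0.16 over 2734 genes in 14837T. These listed genes were lost as well as gained, and were not parted by call.

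Notch1 is the receptor best known from T-cell leukemia and is located on chromosome 2 from 26457902 to 26503822. Its log2 ratio was -0.017 in 15376T, over a segment of 37.3 Mb with 4703 bins, and -0.060 in 14837T, over 74.8 Mb with 7575 bins. Both values lay within 1 SD of 0, and the difference of 0.043 was under the SD.

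Notch3, a receptor of vascular smooth muscle that is also expressed in tumors, and Notch4, the receptor of endothelium, are neighbors on chromosome 17, from 32120820 to 32166896 and from 34564286 to 34588543. They shared a segment in each line, with 611 genes in 15376T and 440 in 14837T, so their values are a single measurement. The log2 ratio was 0.074 in 15376T, where both genes were called at 2 copies, and 0.34 in 14837T, where they were called at 3. The difference of -0.26 was 2.00 times the SD and the largest among the 10 genes, although it reached only the 73.0th percentile of the absolute differences over all autosomal genes. The depth of the segments moved in the same direction. It was 46.4 in 15376T and 58.6 in 14837T, which is 0.011 and 0.30 above segments at 2 copies on the log2 scale. In 14837T the segment ended 130 kb beyond Notch4, within the gene Tnxb, and the next segment of 839 bins was called at 3 copies with a still higher log2 ratio of 0.43. Notch4 therefore lay close to a border of the segmentation but not to the end of the gain.

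Dll1, a Delta-like ligand needed for somite formation, lies on the same chromosome from 15367354 to 15376932. It showed the same pattern in another segment, shared with the 105 genes named there in 15376T and 78 in 14837T, Dll1 included. Its log2 ratio was -0.023 in 15376T and 0.23 in 14837T, and it was called at 2 and 3 copies. The difference of -0.25 was 1.90 times the SD. The depth of its segment, 48.2 in 15376T and 60.4 in 14837T, gave a difference of -0.28 relative to segments at 2 copies. On chromosome 17 as a whole, 0% of the length was gained and 10.2% lost in 15376T, whereas 84.1% was gained and 0% lost in 14837T. The length-weighted mean log2 of the chromosome was -0.016 and 0.27. The higher call of Notch3, Notch4 and Dll1 was thus shared with most of their chromosome.

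**Figure D2:**
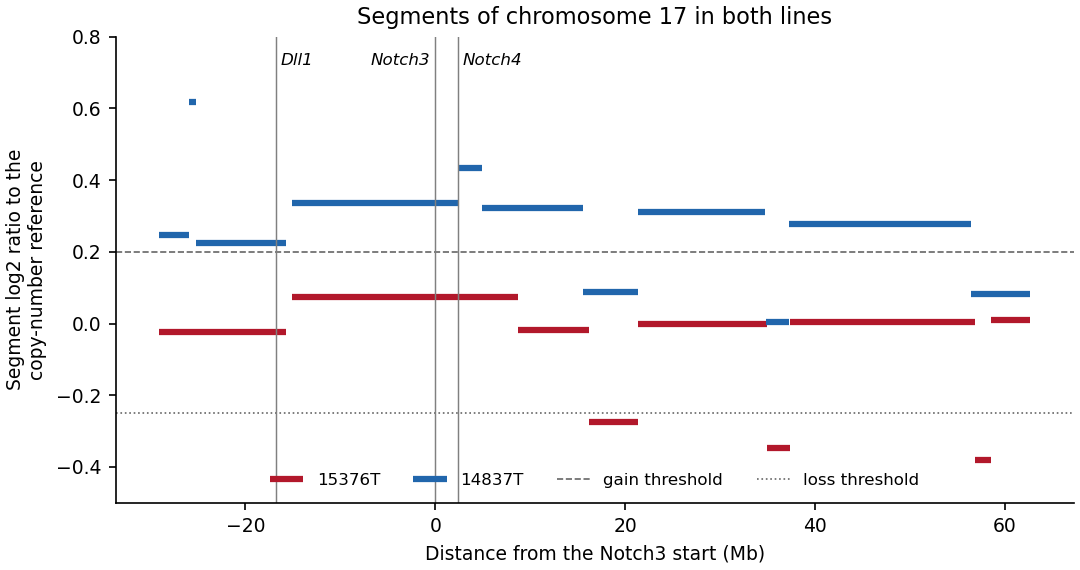
Segments of chromosome 17 in 15376T (red) and 14837T (blue), with the distance from the Notch3 start in Mb on the x axis and the segment log2 ratio on the y axis. Vertical lines mark Dll1, Notch3 and Notch4, and the dashed and dotted lines mark the thresholds of a gain (0.2) and a loss (-0.25). The segments of 14837T that hold these genes lie at 0.23 and 0.34, above the gain threshold, and those of 15376T at -0.023 and 0.074.

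The sequence upstream of these 3 genes is shown because they changed call together. It comes from RefSeq (GRCm38.p6), stops before the first annotated base of the gene, reads 5′ to 3′ on the strand of the gene, and has GC boxes (GGGCGG, or CCGCCC on the other strand) in capitals. The windows are chr17:32166897-32167140 on the minus strand for Notch3, chr17:34564045-34564285 on the plus strand for Notch4 and chr17:15376933-15377182 on the minus strand for Dll1.
Notch3: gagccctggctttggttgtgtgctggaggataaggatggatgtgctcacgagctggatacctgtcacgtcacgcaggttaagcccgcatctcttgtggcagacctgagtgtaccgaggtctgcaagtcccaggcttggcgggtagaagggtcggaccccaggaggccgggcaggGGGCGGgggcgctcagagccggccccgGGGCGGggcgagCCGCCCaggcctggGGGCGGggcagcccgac
Notch4: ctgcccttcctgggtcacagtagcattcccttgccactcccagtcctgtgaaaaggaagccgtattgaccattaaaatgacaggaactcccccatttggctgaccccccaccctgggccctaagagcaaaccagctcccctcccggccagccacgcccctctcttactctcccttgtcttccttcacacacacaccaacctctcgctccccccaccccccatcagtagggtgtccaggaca
Dll1: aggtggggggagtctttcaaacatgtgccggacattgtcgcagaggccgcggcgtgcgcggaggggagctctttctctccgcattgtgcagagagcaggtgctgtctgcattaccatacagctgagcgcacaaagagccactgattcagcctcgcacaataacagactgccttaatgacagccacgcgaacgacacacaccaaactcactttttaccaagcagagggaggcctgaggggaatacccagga

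The Notch3 window held 4 GC boxes and 68.9% G and C, while the windows of Notch4 (58.9% G and C) and Dll1 (56.0%) held 0. Over the 21263 windows of 250 bases upstream of protein-coding genes, 42.6% had at least 1 GC box. The core motif bound by Rbpj, TGGGAA or TTCCCA on the other strand, was found in 20.9% of those windows. It was present in 0 of the 7 Notch genes with bases given upstream of the annotated gene. Hes1, Jag2 and Rbpj are not among these 7, since no such bases were available for them. The search is a match of letters and says nothing about binding elsewhere. These sequences are the reference and not the DNA of the lines.

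Among the ligands, Jag2 was the other gene with a different call. It is located on chromosome 12 from 112907803 to 112929812. Its log2 ratio was 0.12 in 15376T and 0.29 in 14837T, called at 2 and 3 copies. The difference of -0.18 was 1.35 times the SD, a smaller step than that of Dll1. The 2 values came from segments of unequal extent, 74.6 Mb with 5491 bins and 555 genes in 15376T and 2.89 Mb with 696 bins and 65 genes in 14837T. In 14837T the segments on either side of Jag2 were called at 2 copies, with log2 ratios of 0.15 and 0.14, and the nearer border lay 487 kb beyond the gene, between Tmem121 and Adam6b. The step at that border was -0.16 on the log2 scale. The call of a gain at Jag2 was thus bounded on both sides. The flanks also had positive log2 ratios, and the threshold of 0.2 fell between them and the segment of Jag2. In 14837T, 24.9% of the length of chromosome 12 was gained, and 5.97% in 15376T.

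Jag1, the ligand mutated in Alagille syndrome, and Dll4, the ligand of sprouting vessels, were called at 2 copies in both lines. Both are on chromosome 2, Jag1 from 137081451 to 137116520 and Dll4 from 119325784 to 119335666. For Jag1 the log2 ratio was -0.071 in 15376T and -0.049 in 14837T. For Dll4 it was 0.0081 in 15376T and -0.049 in 14837T, where the 2 genes shared a segment of 83.1 Mb. The differences of -0.022 and 0.057 were under the SD. By segment depth the difference of Jag1 was -0.15, somewhat over it, and that of Dll4 was 0.099. Their chromosome, which also holds Notch1, had few changes. Of its length, 0.031% was gained in each line, while 4.01% was lost in 15376T and 0.918% in 14837T.

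Thus 4 of the 10 genes had a different call in the lines, beside 29.3% of all autosomal genes. All 4 had 2 copies in 15376T and 3 in 14837T, a pattern seen in 13.4% of all autosomal genes. They stand for 3 segments in each line. In 14837T the log2 ratio of Dll1 (0.23) lay near the threshold of 0.2, and that of Jag2 (0.29) just under a stricter threshold of 0.3. With gains counted only from a log2 ratio of 0.3, 3 of the 10 genes were gained in 14837T (Notch2, Notch3 and Notch4), and 2 had a different call. The shares of all autosomal genes were taken from the deposited calls alone, so none stands beside these counts at 0.3.

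Rbpj kept the same call although its values lay further apart than those of Jag2. It encodes the protein through which all 4 receptors act on DNA and lies on chromosome 5 from 53555779 to 53657445. Its log2 ratio was 0.049 in 15376T, over 579 bins, and -0.17 in 14837T, over 1333 bins. The difference of 0.22 was 1.67 times the SD and the only one above the SD with the higher value in 15376T. The depth of the segments, 44.7 and 38.4, gave a difference of 0.27 relative to segments at 2 copies. Both values stayed between the thresholds of a gain and a loss. In 15376T the border of its segment lay 749 kb from the gene, within Zcchc4, and the segment beyond had a log2 ratio of -0.097 and 2 copies.

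Hes1 was the only gene of the 10 lost in both lines, a state shared by 22.4% of all autosomal genes. It is located on chromosome 16 from 30065357 to 30067796. Its log2 ratio was -0.65 in 15376T and -0.49 in 14837T, from a segment of 73.5 Mb and 441 genes whose start and end did not differ between the lines (4416 and 4418 bins). The whole covered length of chromosome 16 was called lost in both lines. The difference of -0.16 was 1.19 times the SD. Neither value was as low as -1.

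The own depth of Hes1, over 5 bins, was 31.9 in 15376T and 40.5 in 14837T. Relative to segments at 2 copies these depths were -0.53 and -0.23 on the log2 scale. The difference of -0.30 between the lines was larger than the -0.16 of the segment. Over the 1983 autosomal genes listed in both lines with the same number of bins, at least 5, the difference in own depth departed from that of the segment by a mean of -0.046 with an SD of 0.15. The departure of Hes1 was -0.14 and that of Notch2 was -0.058, so each lay within 1 SD of the mean.

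**Figure D3:**
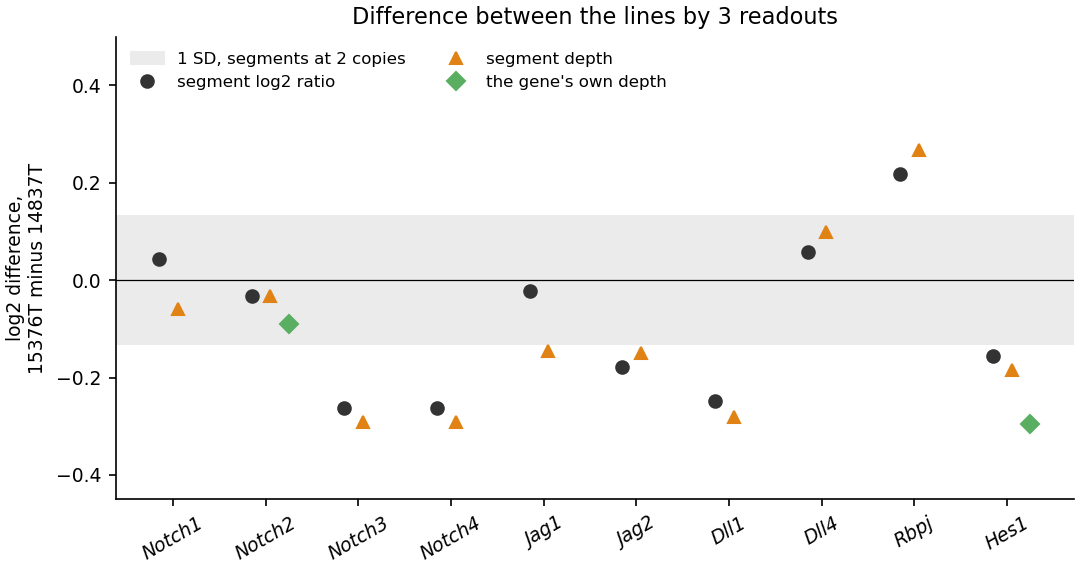
Difference between the lines, 15376T minus 14837T, on the log2 scale (y axis) for the 10 Notch genes (x axis), from the segment log2 ratio (circles), the segment depth relative to segments at 2 copies (triangles) and the gene's own depth on the same basis (diamonds, Notch2 and Hes1). The gray band is 1 SD of a difference, 0.13. Notch3, Notch4, Jag2, Dll1 and Hes1 are below the band and Rbpj above it by both the segment log2 ratio and the segment depth, and Jag1 is below it by depth alone.

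In order of log2 ratio, Notch2 was highest and Hes1 lowest in both lines. In 15376T the gap from Notch2 (0.41) to the next gene, Jag2 (0.12), and the gap from Jag1 (-0.071) to Hes1 (-0.65) exceeded the SD of 0.090, while Jag2, Notch3, Notch4, Rbpj, Dll4, Notch1, Dll1 and Jag1 followed each other in steps smaller than that. In 14837T the order was Notch2, Notch3 with Notch4, Jag2, Dll1, Jag1 with Dll4, Notch1, Rbpj and Hes1. The step from Dll1 (0.23) to Jag1 and Dll4 (-0.049) exceeded the SD of 0.095 and parted the gained genes from the others, and those from Notch1 to Rbpj and from Rbpj to Hes1 exceeded it too. The steps between the 5 gained genes did not all do so: the one from Notch2 to Notch3 was larger than the SD, and those from Notch3 to Jag2 and from Jag2 to Dll1 were smaller. Over the 10 genes, 7 were higher in 14837T and 3 in 15376T, beside 59.2% of all autosomal genes that were higher in 14837T.

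The B-allele fraction (BAF) of a segment is the share of reads that carry the variant allele, and the calls above follow from the log2 ratio without it. Its autosomal median, weighted by segment length, came to 0.077 for 15376T and 0.061 for 14837T. The BAF of the segment of Notch3 and Notch4 was 0.047 and 0.041 in 15376T and 14837T, that of Dll1 0.063 and 0.048, that of Jag2 0.053 and 0.067, and that of Notch2 0.058 and 0.052. All of these were close to the medians. The BAF of Hes1 was 0.086 in 15376T and 0.055 in 14837T. Higher values were found among the genes called at 2 copies in both lines. Notch3, Notch4, Dll1 and Jag2, also called at 2 copies in 15376T, had a BAF below the median in that line. For Rbpj the BAF was 0.35 in 15376T and 0.099 in 14837T. For Notch1 it was 0.30 and 0.19, for Jag1 0.13 and 0.21 and for Dll4 0.091 and 0.21. How many variants stood behind each BAF was not used here, and no interval is given.

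Beyond these 10 genes, a list of 66 genes with a role in the Notch pathway was drawn up by role, and all 66 were measured. In 15376T 4 were gained and 20 lost, and in 14837T 14 were gained and 17 lost. In both lines 4 were gained and 15 lost. Over all autosomal genes, 9.09% were gained and 30.1% lost in 15376T, and 21.4% were gained and 28.8% lost in 14837T. In both lines 6.87% of all autosomal genes were gained and 22.4% lost. The counts of the list were near these shares. The call differed between the lines for 17 of 66 genes (25.8%), which is near the 29.3% of all autosomal genes. The copy number was higher in 14837T for 15 of these 17 and lower for 2, and among all autosomal genes with a different call 71.8% were higher in 14837T. Many of the 17 share a chromosome or a segment, so this count is of fewer separate measurements. The same holds for the 15 genes lost in both lines, which lie on chromosomes 4, 7 and 16. Those on chromosome 7 (Psenen, Furin, Dll3, Ctbp2 and Numbl) had the same log2 ratio of -0.53 in 15376T. The median log2 ratio of the list was -0.018 in 15376T and -0.029 in 14837T.

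Among the 14 genes that process the receptors or activate the ligands, 7 were lost in 15376T and 3 in 14837T, and 6 differed in call. Over all autosomal genes, 30.1% were lost in 15376T and 28.8% in 14837T, and 29.3% differed in call. With 42.9% of its genes differing in call, this role had the highest share of the 6 roles. Adam10, the protease of the first cut, was at -0.53 in 15376T and -0.029 in 14837T, called at 1 and 2 copies. Aph1b and Aph1c, subunits of gamma-secretase, lie in the same segments of chromosome 9 and had the same values, so with Adam10 they are a single measurement in each line. Mib1, a ubiquitin ligase that lets the ligands pull on the receptor, was at -0.62 in 15376T and 0.093 in 14837T, the widest difference in the list. Neurl1a was at -0.071 and 0.48, and Neurl1b, in the segment of Notch3 and Notch4, at 0.074 and 0.34. The gamma-secretase subunit Aph1a was gained in both lines, with log2 ratios of 0.59 and 0.62. Psenen, a further subunit, was lost in both at -0.53 and -0.31, as were the protease Furin at -0.53 and -0.35 and the ubiquitin ligase Mib2 at -0.51 and -0.34. The gamma-secretase subunit Ncstn and the protease Adam17 were called at 2 copies in both lines.

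Among the 5 enzymes that add sugars to the receptors, Lfng was at 0.094 in 15376T and 0.34 in 14837T, called at 2 and 3 copies. Poglut1 was lost in both lines, in the segment of Hes1 (-0.65 and -0.49). Of the 6 other ligands, Dlk2 was at -0.019 and 0.32, called at 2 and 3 copies. Dll3 was lost in both lines, at -0.53 and -0.31. The other 4 ligands were called at 2 copies in both.

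Among the 18 nuclear coactivators and corepressors, 5 were lost in both lines and 3 (16.7%) differed in call. Over all autosomal genes these shares were 22.4% and 29.3%. Of the Mastermind coactivators that bind Rbpj and the receptor, Maml3 was gained in both lines, at 0.45 and 0.52, Maml2 was at -0.10 in 15376T and 0.203 in 14837T, just above the threshold, and Maml1 was called at 2 copies in both. The acetyltransferases Kat2b (-0.0025 and 0.31) and Ep300 (0.0064 and 0.31) were called at 2 copies in 15376T and 3 in 14837T. The related Crebbp was lost in both lines, at -0.54 and -0.40. Spen, a corepressor partner of Rbpj, Hdac1 and Tle1 were lost in both, each at -0.59 and -0.39 on chromosome 4. Ctbp2 was lost at -0.53 and -0.48.

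Among the 11 other effectors, the calls of the Hes and Hey genes divided. Hes5 (-0.51 and -0.34), Hes3 (-0.56 and -0.39) and Heyl (-0.59 and -0.39), all on chromosome 4, were lost in both lines like Hes1. Hey1 was gained in both, and Hes6, Hes7 and Hey2 were called at 2 copies in both. Ptcra was at -0.019 and 0.32, called at 2 and 3 copies.

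Among the 12 negative regulators, 4 (33.3%) differed in call, beside 29.3% of all autosomal genes. Fbxw7, the ubiquitin ligase that marks the intracellular part of the receptors for destruction, was at -0.098 in 15376T and 0.38 in 14837T, called at 2 and 3 copies. Nedd4, on chromosome 9 with Adam10, was at -0.53 and -0.029. Dtx4 was at -0.030 and 0.36, and Dtx3 went the other way, at 0.12 and -0.38. Numbl was lost in both lines at -0.53 and -0.31, and Dtx3l was lost in both in the segment of Hes1, at -0.65 and -0.49. Numb and Itch, which lower Notch activity, were called at 2 copies in both. Of the 17 genes with a different call, 5 lie on chromosome 9, 4 on chromosome 17 and 2 each on chromosomes 10 and 19.

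**Figure D4:**
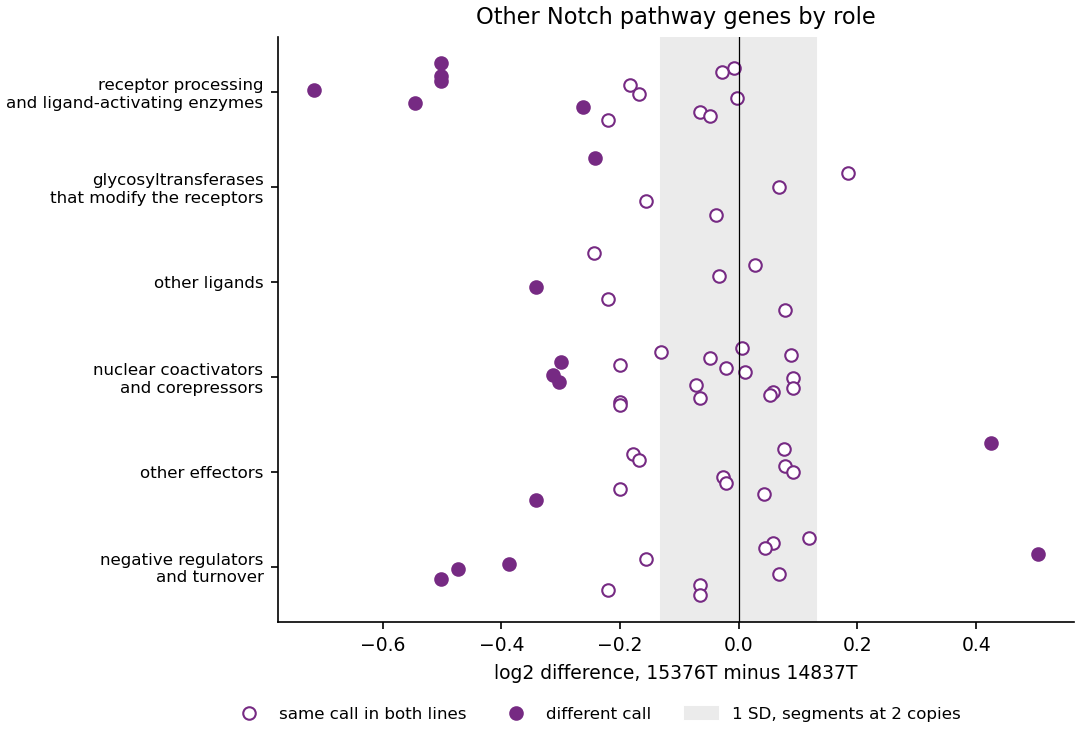
Difference in segment log2 ratio, 15376T minus 14837T (x axis), of the 66 other Notch pathway genes, in a row for each role (y axis). Filled points are the 17 genes with a different call, open points have the same call in both lines, and the gray band is 1 SD of a difference, 0.13. Of the filled points, 15 lie to the left, higher in 14837T, and 2 lie to the right, among them Dtx3. Genes in 1 segment have the same value.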

How the data were processed

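Whole-exome DNA of the lines 15376T and 14837T was analysed, 1 library each. The labels name an Agilent human exome kit for the capture and the methods a NimbleGen one, either of which was applied to mouse DNA. The genome build is mm10 per the submitters' processing notes. The aligner, the copy-number program and its reference are not given in the sources used here. The column names are those of CNVkit. The log2 ratios, integer copy numbers and depths were deposited by the authors for each segment and, in a second table, for each gene with an absolute log2 ratio of about 0.40 or more. The BAF was deposited as a fraction, and depth as a coverage signal without normalization. The gene table gives each gene the log2 of its segment.

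Genes were found by name in the segment tables, and all 10 fell in the same segments by their RefSeq position on GRCm38.p6. The background was the autosomal gene names held by a single segment in each line, and 187 autosomal names found in more than 1 segment of a line were left out. Segment and gene depths were divided by the mean depth of autosomal segments called at 2 copies, weighted by bins. Starts count from 1. Python 3.11.15, numpy 2.4.6, pandas 2.3.3 and matplotlib 3.10.9 were used, and the counting steps were run on simulated data. The simulated log2 ratios lay away from the thresholds, so that run says nothing about calls near them. No p-value is given, since each line has 1 library. The 10 genes, the list of 66 and the alternatives were chosen with earlier results of these data known. Of the list, genes with a different call or an absolute log2 ratio of at least 0.5 in either line were named with their values, and the others named were chosen for their role after their values were seen. Some genes of the list, counted with the rest, are not reported here by name. Alternatives were other thresholds, other zero points and ratios of depth.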

Additional observations from a re-analysis of the deposited data

How the results depend on the processing

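The threshold moved the counts most. Shares over all autosomal genes were counted from the deposited calls alone, so the counts below at other thresholds or zero points have no background. With gains and losses counted from an absolute log2 of 0.3, 3 of the 10 genes were gained in 14837T (5 as deposited) and 2 had a different call (4). From 0.5, 0 were gained in 15376T (1) and 0 in 14837T, 0 were lost in 14837T (1) and 1 had a different call, Hes1. Of the list of 66, 1 gene was then gained in 15376T (4), 2 were gained (14) and 1 was lost (17) in 14837T, while 20 stayed lost in 15376T and those with a different call rose to 22 (17). With log2 recentred on the autosomal median (-0.040 in 15376T and -0.049 in 14837T) or on segments called at 2 copies, the 5 counts of the 10 genes and the counts of the list in 15376T stayed the same, while the genes of the list gained in 14837T became 19 and 18 (14) and those with a different call 22 and 21 (17). Recentring moves every value of a line by the same amount, which was smaller than the SD. None of the 30 single values of the 10 genes could therefore move by more than the SD. Ratios of segment depth moved none of the 10 differences by more than the SD, although that of Notch1 (-0.060, from 0.043) changed sign within it. The own depth moved that of Hes1 to -0.30 and left that of Notch2. Values from the gene table equal the segment's by construction. Counting the 5 gained genes of 14837T as 4 segments was chosen after the data were seen. No paired analysis was possible because 1 library stands for each line, so the replicate number pairs nothing. A change smaller than a segment within one of the 8 genes without a depth of their own was not detectable in these tables.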
